A study of Mus musculus with 6 samples.

Results

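The genes of the proteasome were examined for chromatin accessibility at their ends. A peak belonged to the set when it lay within 1 kb of either end of a protein-coding RefSeq gene of the mouse assembly GRCm38 whose symbol begins with Psma, Psmb, Psmc, Psmd or Psme. Of 97124 deposited peaks, 16776 lay within 1 kb of the end of some protein-coding gene, and 66 of these belonged to the proteasome set. The rule named 46 genes, of which 43 had at least 1 such peak. No gene-end peak was found for Psmb11, the thymus-specific catalytic subunit, for Psme2b, an intronless copy of Psme2, or for Psmd10, an assembly chaperone on the X chromosome, for which the table holds no peaks at all. The rule looks only at symbols, so it also takes in Psmc3ip, a cofactor of meiotic recombination, and Psme3ip1, an interactor of an activator, which encode no subunit.

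The proteasome is the large protease that degrades proteins tagged with ubiquitin. Its barrel-shaped core stacks rings of alpha (Psma) and beta (Psmb) subunits and holds the proteolytic sites of Psmb5, Psmb6 and Psmb7 inside. A regulatory particle of ATPases (Psmc) and other subunits (Psmd) recognises, unfolds and feeds in the tagged protein, and alternative activators (Psme) can dock in its place. In lymphoid cells and under interferon the inducible subunits Psmb8, Psmb9 and Psmb10 replace Psmb5, Psmb6 and Psmb7 to form the immunoproteasome, which favours peptides suited to MHC class I presentation. Because every dividing or resting cell needs the complex, most of its genes are regarded as housekeeping genes.

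Open chromatin had been profiled by ATAC-seq, which uses a transposase to place sequencing adapters where DNA is exposed. The cells were B-cells from the bone marrow of mice that the labels call PEtg, and they had been separated by their content of H2B-GFP, a fluorescent histone that thins out as cells divide. H2B-GFP high samples stand for quiescent cells (n = 3) and H2B-GFP low samples for proliferating cells (n = 3). Both groups came from PEtg mice, so both carry whatever that name stands for, and no age, transgene promoter or pooling of animals is stated in the labels. Nothing says that the samples of a group are separate animals, and the p-values therefore reflect variation among these 6 samples, part of which may be technical.

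The authors' scaling had brought the samples to similar totals, 20904407 to 21518630 in signal units. Estimated reads in peaks numbered 28070079 in quiescent sample 1, 14015383 in quiescent sample 2 and 18581518 in quiescent sample 3. They numbered 8054352 in proliferating sample 1, the shallowest, and 31715513 in proliferating sample 2. Proliferating sample 3, at 49055591, was the deepest. All 8 B-cell marker genes examined had gene-end peaks, with a median signal of 1546 in the strongest peak of each, and the summed signal of all their gene-end peaks was 13864 to 15998 in quiescent samples against 14843 to 17634 in proliferating samples. Of 8 myeloid marker genes 4 had peaks (none at Csf3r, Elane, Mpo and S100a8), summing to 1367 to 1524 in quiescent samples against 841 to 1034 in proliferating samples. Of 8 T and NK genes 5 had peaks (none at Cd3e, Cd3g and Ncr1), summing to 3200 to 3586 in quiescent samples against 2883 to 3098 in proliferating samples. All 8 plasmacytoid dendritic and plasma cell genes had peaks, summing to 2570 to 2908 in quiescent samples against 1998 to 2506 in proliferating samples, and 2 of 8 erythroid and megakaryocyte genes did, summing to 1919 to 2166 against 1607 to 2113. In limma, 1 gene-end peak each of Csf1r (myeloid, log2 fold change 1.06), Siglech (plasmacytoid dendritic, 1.35), Klrb1c (NK, 1.17) and Blk (B cell, 0.81) was called higher in quiescent cells. By list, 1 of 4 myeloid, 1 of 14 plasmacytoid dendritic and plasma cell and 1 of 7 T and NK peaks were called higher. So was 1 of 18 B-cell peaks, against 1.33% of other gene-end peaks. For the B-cell genes Ms4a1 (-0.95) and Pax5 (-0.55), 1 peak each was called lower, where 1.48% of other gene-end peaks were called lower. Other peaks of these genes were not called. They were at 0.07 (the strongest) and 0.52 for Klrb1c, 0.79 and 1.09 for Siglech, 0.15 for Blk, -0.16 for Ms4a1 and 0.07 for Pax5. In bulk samples, fewer cells of a type and less signal per cell cannot be told apart, and the part of cell makeup in the values below was not tested.

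The promoter table used, taken from RefSeq, matched 39 of the 46 genes and gives each promoter as the 250 bases before and the first 50 bases after a transcription start on GRCm38.p6. Those of 6 genes are shown, Psmc6 for combining several motifs named below and the others because the results set inducible genes beside constitutive counterparts. They lie at chr17:34197945-34198244 (Psmb8, plus strand), chr17:34187281-34187580 (Psmb9, minus strand), chr8:105938343-105938642 (Psmb10, minus strand), chr14:54617946-54618245 (Psmb5, minus strand), chr11:70525107-70525406 (Psmb6, plus strand) and chr14:45329574-45329873 (Psmc6, plus strand). Sequences run 5′ to 3′ along the gene, and capitals mark matches, on either strand, to any of 8 motifs named after them.
Psmb8: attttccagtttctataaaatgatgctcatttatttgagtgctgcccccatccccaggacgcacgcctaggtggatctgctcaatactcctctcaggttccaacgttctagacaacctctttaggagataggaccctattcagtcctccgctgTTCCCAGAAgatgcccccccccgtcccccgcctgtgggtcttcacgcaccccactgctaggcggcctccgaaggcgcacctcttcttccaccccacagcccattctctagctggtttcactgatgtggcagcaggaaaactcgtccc
Psmb9: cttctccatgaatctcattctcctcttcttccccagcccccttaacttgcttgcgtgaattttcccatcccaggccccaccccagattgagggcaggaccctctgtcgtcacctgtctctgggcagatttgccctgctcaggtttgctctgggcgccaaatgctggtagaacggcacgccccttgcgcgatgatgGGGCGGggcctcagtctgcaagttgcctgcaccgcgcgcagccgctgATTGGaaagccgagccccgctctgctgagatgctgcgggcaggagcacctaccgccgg
Psmb10: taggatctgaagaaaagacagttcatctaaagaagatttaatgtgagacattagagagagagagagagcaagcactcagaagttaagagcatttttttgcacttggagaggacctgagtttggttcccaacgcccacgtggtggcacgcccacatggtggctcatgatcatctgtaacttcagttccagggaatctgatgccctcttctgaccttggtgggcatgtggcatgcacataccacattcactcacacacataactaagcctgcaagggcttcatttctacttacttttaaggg
Psmb5: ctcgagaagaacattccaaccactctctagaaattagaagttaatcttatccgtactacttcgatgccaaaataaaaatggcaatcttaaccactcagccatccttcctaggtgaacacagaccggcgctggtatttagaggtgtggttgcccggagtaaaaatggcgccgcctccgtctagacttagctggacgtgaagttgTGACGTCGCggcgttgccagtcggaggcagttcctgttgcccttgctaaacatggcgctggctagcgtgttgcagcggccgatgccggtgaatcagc
Psmb6: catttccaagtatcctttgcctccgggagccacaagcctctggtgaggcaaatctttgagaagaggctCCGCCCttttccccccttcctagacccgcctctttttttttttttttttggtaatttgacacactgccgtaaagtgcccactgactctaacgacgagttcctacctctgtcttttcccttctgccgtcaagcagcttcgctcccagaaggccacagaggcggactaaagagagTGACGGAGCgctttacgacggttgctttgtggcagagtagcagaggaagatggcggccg
Psmc6: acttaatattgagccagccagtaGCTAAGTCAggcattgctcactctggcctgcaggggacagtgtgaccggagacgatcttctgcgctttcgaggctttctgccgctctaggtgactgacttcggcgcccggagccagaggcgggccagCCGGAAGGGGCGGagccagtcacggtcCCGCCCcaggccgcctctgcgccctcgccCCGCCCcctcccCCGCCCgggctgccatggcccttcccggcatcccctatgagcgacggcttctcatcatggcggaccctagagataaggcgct

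The motifs searched included the core of the antioxidant response element (TGACNNNGC), through which Nfe2l1 and Nfe2l2 raise proteasome genes. With it were the CCAAT box (CCAAT), the GC box (GGGCGG), the ETS core (CCGGAAG) and the nuclear respiratory factor core (GCGCATGC). The others were an interferon response motif (GAAANNGAA), the gamma-activated site (TTCNNNGAA) bound by STAT factors, and an NF-kB motif (GGGANTTTC). Psmb5 has an antioxidant response core from base -47 to -39 and Psmb6 has one from -9 to -1, counted back from the start. Psmc6 has one on the opposite strand from -227 to -219, and further down an ETS core from -100 to -94 that runs straight into a GC box. None of the promoters of Psmb8, Psmb9 and Psmb10 holds the antioxidant response core. The only match in the Psmb8 window is a gamma-activated site from -97 to -89, Psmb9 has a GC box and, on the opposite strand, a CCAAT box, and the Psmb10 window matches none of the 8 motifs.

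Of the 43 listed promoters of these genes 38 lay under a peak, and the shares with a motif are given for these 38 beside the 12645 other promoters under a peak, and then for all 43 beside all 32808 others. The antioxidant response core was present in 15.8% against 14.3% under a peak, and in 14.0% against 12.4% in all. It occurred at Psmb5, Psmb6, Psmc6, Psmd9, Psmd12 and Psme4. The ETS core was present in 39.5% against 18.2% under a peak, and in 34.9% against 8.8% in all. The 15 promoters with it belong to 14 genes, as Psmc2 counts with both of its listed promoters. Among these genes are Psmc3ip and Psme3ip1, which encode no subunit. The GC box was present in 60.5% against 60.5% under a peak and in 55.8% against 35.6% in all, and the CCAAT box in 34.2% against 37.9% and in 37.2% against 37.4%. The interferon response motif was present in 15.8% against 7.4% under a peak and in 14.0% against 8.6% in all. It occurred at Psmb3, Psmb4, Psmc2, Psmd4, Psmd9 and the activator gene Psme1, and at none of Psmb8, Psmb9 and Psmb10. The nuclear respiratory factor core was present in 5.3% against 5.3% under a peak, and the gamma-activated site in 5.3% against 7.2%. The NF-kB motif, found at Psma6 alone, was present in 0.0% against 1.1% under a peak and in 2.3% against 1.1% in all. Overlaps between motifs were not removed. A match describes letters in a window and not a bound site.

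The proteasome peaks mostly lay over gene starts. Where RefSeq's promoter table gave the strand, 49 peaks lay at the 5′ end of a gene and 5 at the 3′ end (at Psma6, Psmb9, Psmd11, Psme2 and Psme3), and 12 peaks were at genes whose strand is not listed there. Of the 43 genes, 23 had 1 peak, 17 had 2 and 3 had 3 (Psma7, Psmb9 and Psme2). In 37 genes the strongest peak, called the lead peak here, covered the end of the gene itself. Of the 66 peaks, 23 (34.8%) also lay within 1 kb of an end of another protein-coding gene, against 15.7% of the 16710 other gene-end peaks. Examples are those of Psmb8 and Psmb9 with Tap1, the peptide transporter gene of the MHC region, and those of Psma2 with Mrpl32, Psmb1 with Tbp, Psmd13 with Sirt3 and Psmb10 with Lcat. Such a peak cannot be credited to 1 gene alone. The peaks nearest to the distance limit were those of Psmd8 at 899 bp (mean signal 479 in quiescent and 528 in proliferating cells) and Psmd9 at 897 bp (34.4 and 28.1) inside it, and those of Psmb1 at 1013 bp (41.3 and 52.5) and Psmc2 at 1026 bp (191 and 194) outside it.

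Per kilobase of peak, the 66 peaks had a median signal of 162, against 135 at other gene-end peaks. The highest levels per kilobase were at Psmd8 (654), a lid subunit gene, at Psmd3 (581), another lid subunit gene, and at Psma3 (562) and Psmb3 (555) of the core rings. The lead peaks of the inducible genes reached 156 at Psmb8, 290 at Psmb9 and 227 at Psmb10, and those of their constitutive counterparts 156 at Psmb5, 442 at Psmb6 and 119 at Psmb7, all as signal per kilobase averaged over the 6 samples. Of the 43 lead peaks, 21 were in the strongest quartile of tested gene-end peaks, above a mean signal of 335. A lead peak is the strongest of its gene, while the quartiles also count weaker peaks, so a high share follows in part from that choice. Over all 62 tested proteasome peaks, 21 were in that quartile, and the share for lead peaks of other genes was not computed.

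**Figure D1:**
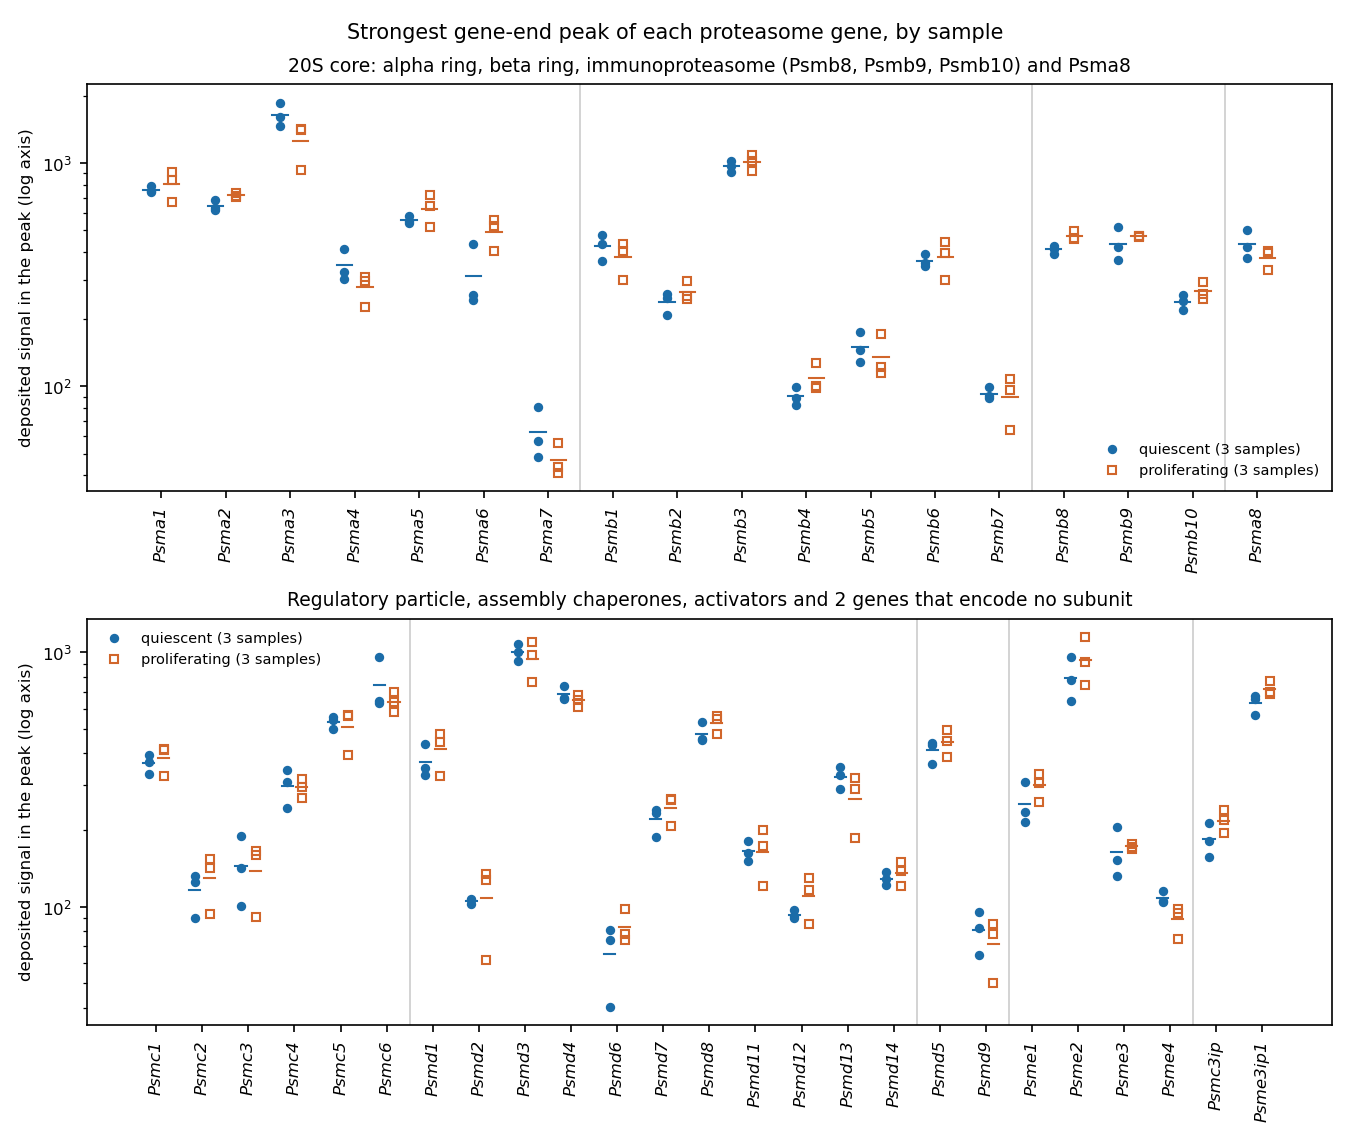
Deposited signal (log axis) in the lead peak of each of the 43 genes, with 1 point per sample and a short line at each group mean; filled circles are quiescent and open squares proliferating samples (3 each), and vertical lines part the gene classes. The groups overlap at most genes, and levels differ far more between genes, from a mean of 54.5 at Psma7 to 1446 at Psma3, than between groups; peaks differ in width.

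The question put to the set was whether quiescent and proliferating cells differ in accessibility at proteasome genes. Of 62 peaks strong enough to be tested, limma called 0 higher and 0 lower in quiescent cells at a Benjamini-Hochberg adjusted p below 0.05, where 2.81% of the 15762 other gene-end peaks and 6.72% of all 87411 tested peaks were called. By direction, 1.33% of other gene-end peaks were called higher and 1.48% lower, and 4.01% and 2.72% of all tested peaks. At an unadjusted p below 0.05, 4 of 62 passed, against 13.9% of other gene-end peaks and 24.2% of all tested peaks. They were the gene-end peaks of Psma3 and Psma6 and the 3′ peaks of Psmb9 and Psme2. Limma-voom on the estimated reads called 2 higher and 0 lower with median-of-ratios scaling (Psma3 and the Psmb9 3′ peak, against 6.74% of other gene-end peaks called). With scaling to the total it called 0 higher and 1 lower (the Psme2 3′ peak, against 8.95%).

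The replicate numbers shared by the groups were taken to pair the samples. The labels state no pairing, so calls with the replicate as a block rest on that assumption. The block fit called 2 peaks higher, those of Psma3 (adjusted p = 0.0265, limma) and the 3′ end of Psmb9 (adjusted p = 0.0422, limma). It called 1 lower, that of Psma6 (adjusted p = 0.0114, limma). In that fit 8.79% of other gene-end peaks and 18.3% of all tested peaks were called. None of these 3 peaks touches a listed promoter of the gene.

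With 62 peaks tested, a count of 0 calls lies near the 2.81% of other gene-end peaks called. The changes were small in size. Fold changes are log2 differences of signal + 1, quiescent minus proliferating. Their median over the 62 peaks was -0.09, and 37 lay below 0, where 60.4% of other gene-end peaks and 50.7% of all tested peaks did. Outside Psmb8, Psmb9 and Psmb10 the median of 56 peaks was -0.08, against -0.08 over other gene-end peaks and -0.01 over all tested peaks. None of the 62 exceeded 1 in size, against 3.75% of other gene-end peaks, and 4 exceeded 0.5, against 18.1%. The 95% interval of the fold change stayed within 1 on either side of 0 at 51 of 62 peaks (82.3%), against 70.1% of other gene-end peaks, so at those peaks a 2-fold change in either direction lay outside the interval. The median standard error was 0.20 at proteasome peaks and 0.23 at other gene-end peaks.

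**Figure D2:**
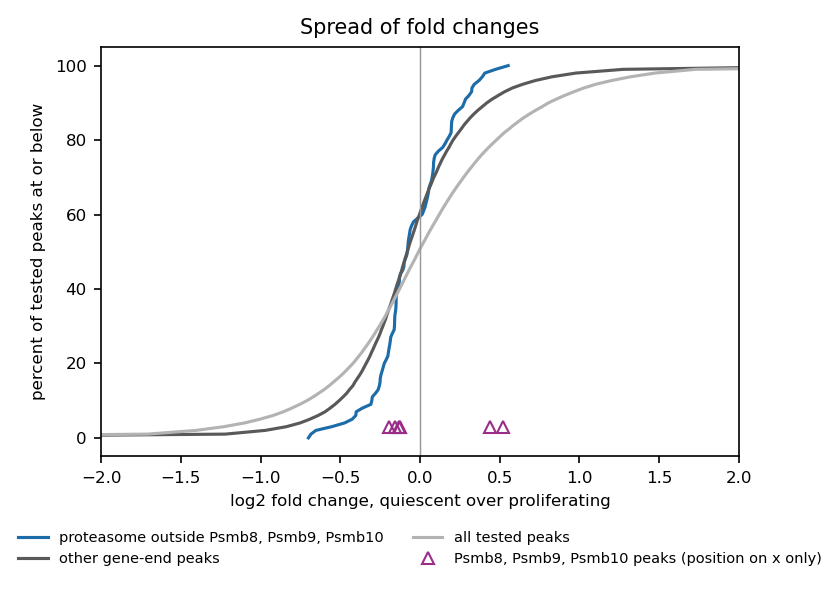
Percent of tested peaks (y) at or below each log2 fold change of signal + 1, quiescent over proliferating (x), for 56 proteasome peaks outside Psmb8, Psmb9 and Psmb10, 15762 other gene-end peaks and all 87411 tested peaks; triangles mark the 6 peaks of Psmb8, Psmb9 and Psmb10 on the x axis only. The proteasome curve crosses its middle at -0.08 like that of other gene-end peaks and ends inside -0.70 and 0.55, while the others run on past the axis.

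Stronger peaks had tighter fold changes, and the proteasome peaks were the stronger (median signal 166, against 122 at other gene-end peaks), so the same comparison was made within signal quartiles. The median fold changes of proteasome peaks from the weakest to the strongest quartile were -0.16, -0.10, -0.08 and -0.08 (10, 14, 17 and 21 peaks). Those of other gene-end peaks were -0.04, -0.09, -0.10 and -0.07. In the strongest quartile the interval stayed within 1 of 0 at 95.2% of proteasome peaks and 95.3% of the others. In the weaker quartiles, weakest first, it did so at 3 of 10, 11 of 14 and 17 of 17 proteasome peaks. The shares of other gene-end peaks, in the same order, were 29.0%, 68.2% and 87.9%. At 9 of 62 peaks the 3 quiescent values did not overlap the 3 proliferating ones, against 24.7% of other gene-end peaks and 30.4% of all tested peaks. Quiescent samples were all above at 3 of them (the Psme4 lead peak, Psma3 and the Psmb9 3′ peak). They were all below at 6 (Psma2, Psmb8, Psme3ip1, the Psme2 3′ peak and the weaker peaks of Psmd6 and Psmd14). By quartile, weakest first, the groups did not overlap at 2 of 10, 2 of 14, 1 of 17 and 4 of 21 proteasome peaks. The shares of other gene-end peaks were 20.83%, 23.54%, 26.58% and 27.95%.

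Within each class of subunit the medians stayed near 0. They were -0.12 for 8 alpha-ring peaks, -0.05 for 8 beta-ring peaks, 0.03 for 8 peaks of the base ATPases and -0.13 for 15 peaks of the other regulatory-particle subunits. They were 0.06 for 4 peaks of the assembly chaperones Psmd5 and Psmd9, and -0.18 for 9 activator peaks, of which 7 lay below 0. The 3 peaks of Psmc3ip and Psme3ip1 had a median of -0.19, and leaving them out moved the median over the set to -0.08. With reads scaled to their total in peaks the median over all tested peaks moved to -0.25, and that of the 56 constitutive peaks moved with it to -0.28, next to -0.29 over other gene-end peaks.

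**Figure D3:**
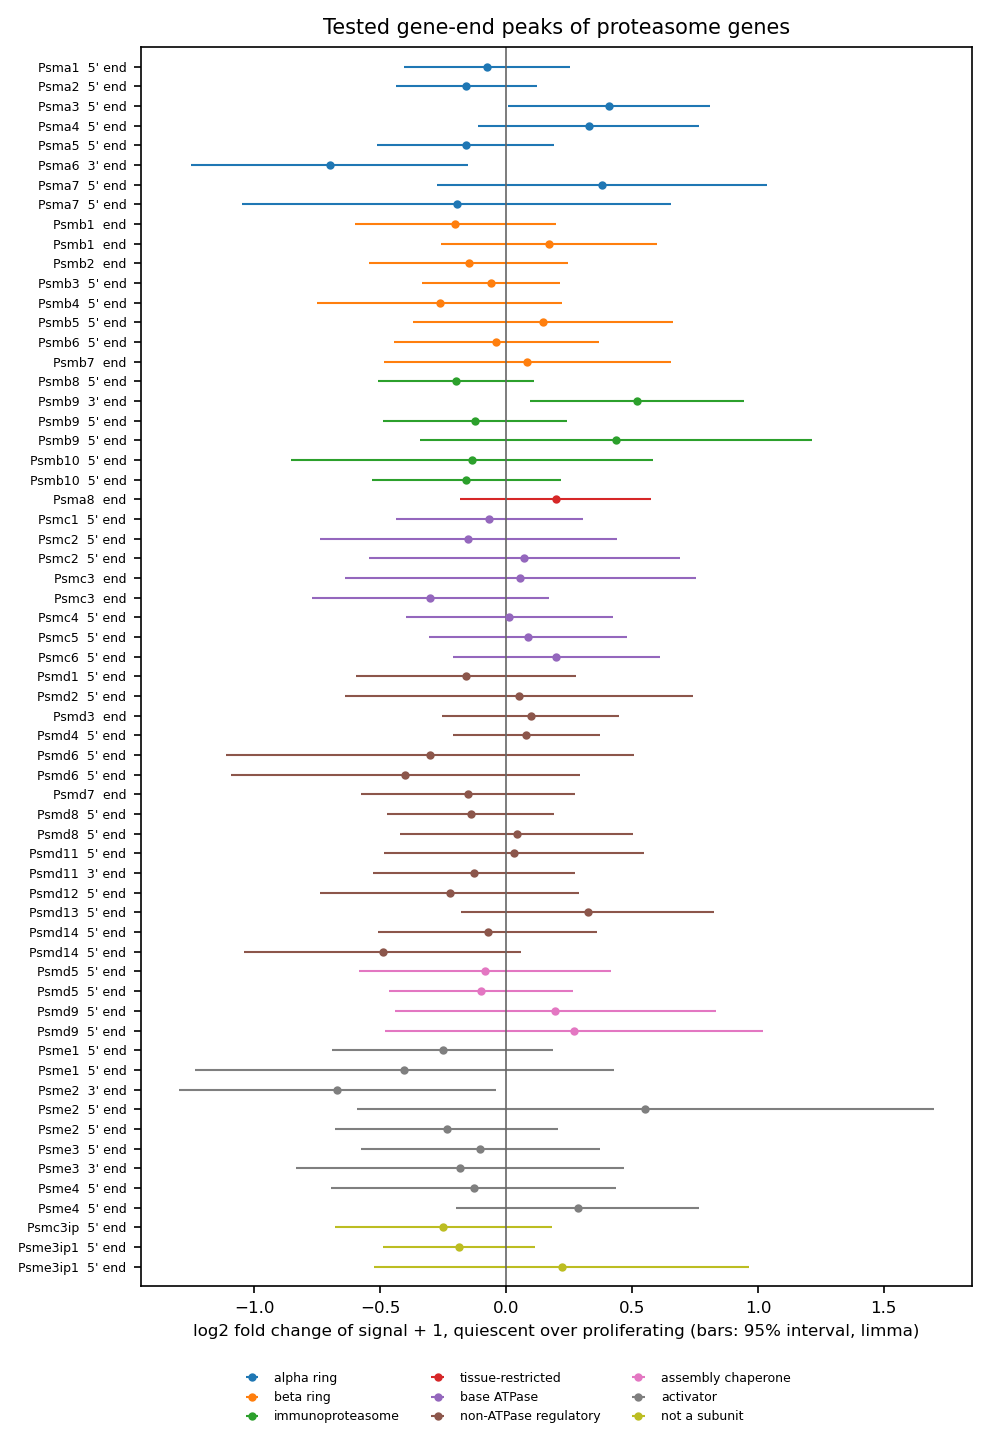
Log2 fold change of signal + 1, quiescent over proliferating (x), with its 95% interval from limma for each of the 62 tested peaks, coloured by class and labelled by gene and by the end of the gene where the strand is listed. Most intervals cover 0; those of Psma3, Psma6, the Psmb9 3′ peak and the Psme2 3′ peak do not, and none of the 4 passed the adjusted threshold.

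In the alpha ring, which gates the entrance of the core, the lead peaks with the highest and the lowest fold change belonged to Psma3 and Psma6. The Psma3 peak (chr12:70967718-70970293) had 1465, 1858 and 1602 in quiescent samples 1, 2 and 3, against 934, 1416 and 1404 in proliferating samples 1, 2 and 3. All quiescent values were above all proliferating ones, and the lowest came from the shallow proliferating sample 1. Its log2 fold change was 0.41 (95% interval 0.01 to 0.81, adjusted p = 0.197, limma). Without proliferating sample 1 it was 0.21 (adjusted p = 0.315), and with median-of-ratios scaling of the estimated reads 0.67 (adjusted p = 0.0146). The peak over the listed Psma3 promoter (chr12:70974201-70975807), which lies away from the annotated gene end, had 494, 610 and 542 in quiescent samples, against 487, 503 and 605 in proliferating samples. There the groups overlapped, with a log2 fold change of 0.05.

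The Psma6 peak (chr12:55418178-55419224), at the 3′ end, had 436, 256 and 243 in quiescent samples and 556, 522 and 402 in proliferating samples. Quiescent samples 2 and 3 were below every proliferating sample, while quiescent sample 1 was above proliferating sample 3. Its log2 fold change was -0.70 (95% interval -1.25 to -0.15, adjusted p = 0.120, limma), the lowest of the set, and without quiescent sample 1 it was called lower (-0.97, adjusted p = 0.0246), as 2.82% of other gene-end peaks were called. With median-of-ratios scaling of the estimated reads it was -0.41 (adjusted p = 0.312, limma-voom). The Psma6 promoter peak (chr12:55398057-55399377) had a fold change of the opposite sign, with 499, 484 and 545 in quiescent samples and 384, 463 and 482 in proliferating samples, a log2 fold change of 0.21 (adjusted p = 0.446, limma). All quiescent values there were above the proliferating ones, by little in the closest pair. The test of the difference between the Psma6 peaks was not made.

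Because the annotated ends of these genes do not coincide with their listed promoters, the comparison was repeated, after the data had been seen, for peaks that touch a listed promoter of a proteasome gene. Of 37 such tested peaks limma called 0 at the adjusted threshold, 0 passed an unadjusted p below 0.05 and 0 were called with the replicate block. Among 8388 other promoter-touching peaks 1.93% were called, 12.1% passed unadjusted and 7.22% were called with the block. The groups did not overlap at 4 of the 37, against 24.6% of the others. The median fold change was -0.07 over the proteasome promoters and -0.09 over the others.

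In the beta ring, no difference passed the test at the proteolytic genes. Psmb5, which encodes the chymotrypsin-like subunit, had 175, 128 and 145 in quiescent samples, against 115, 122 and 171 in proliferating samples. Psmb6, which encodes the caspase-like subunit, had 347, 390 and 356 in quiescent samples, against 299, 396 and 441 in proliferating samples. Psmb7, which encodes the trypsin-like subunit, had 90.9, 99.0 and 88.6 in quiescent samples, against 63.9, 108 and 96.4 in proliferating samples. The groups overlapped at all 3 genes, with the proliferating samples the more spread out. Their log2 fold changes were 0.15 (95% interval -0.37 to 0.66), -0.04 (-0.45 to 0.37) and 0.08 (-0.49 to 0.65).

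Among the other beta-ring genes, which encode structural subunits, the lead peaks at the extremes were those of Psmb1 and Psmb4. Psmb1 had 433, 478 and 364 in quiescent samples and 300, 406 and 436 in proliferating samples, and Tbp, encoding the TATA-binding protein, has an end within 1 kb of the same peak. Psmb4 had 88.6, 83.0 and 99.4 in quiescent samples and 128, 98.7 and 100.7 in proliferating samples. At both genes the ranges overlapped, and their log2 fold changes were 0.17 and -0.26. The weaker Psmb1 peak, which covers the gene end, had the opposite sign, with means of 231 in quiescent and 267 in proliferating samples and a log2 fold change of -0.20.

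Psmb8, which lies in the MHC region and replaces Psmb5, had 414, 393 and 426 in quiescent samples, against 462, 455 and 498 in proliferating samples (chr17:34196314-34199139). All quiescent values were below all proliferating ones, by a small margin. The log2 fold change was -0.20 (95% interval -0.51 to 0.11, adjusted p = 0.420, limma). The nearby end of Tap1 is also within 1 kb of this peak.

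Psmb9, next to it and the replacement of Psmb6, had 3 peaks with fold changes of both signs. Its lead peak over the start (chr17:34186473-34188032) had 517, 369 and 419 in quiescent samples, against 465, 472 and 473 in proliferating samples, with quiescent samples on both sides of the tightly grouped proliferating ones. The weak peak beside it (chr17:34188064-34188536) had 39.0, 22.9 and 36.7 in quiescent samples, against 24.5, 22.0 and 23.7 in proliferating samples, and again the groups overlapped. Their log2 fold changes were -0.12 and 0.44, neither called. The peak 712 bp from the 3′ end (chr17:34180441-34181318) had 259, 372 and 362 in quiescent samples, against 215, 226 and 242 in proliferating samples. Here every quiescent value was above every proliferating one, and the log2 fold change was 0.52 (95% interval 0.09 to 0.95, adjusted p = 0.132, limma). It is this peak that the replicate block and the median-of-ratios scaling brought past the threshold.

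Psmb10, the replacement of Psmb7, lies apart from the MHC region beside Lcat, which encodes a cholesterol-esterifying enzyme. Its lead peak (chr8:105937562-105938678) had 257, 240 and 220 in quiescent samples, against 293, 261 and 247 in proliferating samples. Its weaker peak had 51.3, 37.7 and 45.7 in quiescent samples, against 33.2, 56.9 and 62.2 in proliferating samples. The groups overlapped at both peaks, and the log2 fold changes were -0.16 and -0.13.

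Over the 6 peaks of the inducible genes the median fold change was -0.13, with 2 above and 4 below 0. That sign was not stable, as median-of-ratios scaling of the estimated reads gave 0.058 and scaling to the total gave -0.16. All 3 lead peaks lay below 0 and the 3′ peak of Psmb9 above it.

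To ask whether the balance of inducible and constitutive genes shifted, the log2 signals of the lead peaks were subtracted within each sample. The difference Psmb8 minus Psmb5 was 1.24, 1.61 and 1.55 in quiescent samples, against 2.00, 1.90 and 1.54 in proliferating samples. Psmb9 minus Psmb6 was 0.58, -0.08 and 0.24 in quiescent samples, against 0.63, 0.25 and 0.10 in proliferating samples. Psmb10 minus Psmb7 was 1.49, 1.27 and 1.30 in quiescent samples, against 2.18, 1.26 and 1.35 in proliferating samples. The groups overlapped in each pair, and the highest value of each pair came from the shallow proliferating sample 1. The group means differed by -0.34, -0.08 and -0.24, quiescent minus proliferating, with p-values of 0.3, 0.7 and 0.7 in two-sided exact permutation tests and 0.7 for each after Benjamini-Hochberg adjustment over the 3 pairs. The smallest p that 3 against 3 samples can give is 0.1. On the estimated reads the Psmb8 and Psmb10 differences were smaller, at -0.18 and -0.085 with scaling to the total, and -0.18 and -0.084 with median-of-ratios scaling. Without proliferating sample 1 the Psmb10 pair changed sign, to 0.051, as did the Psmb9 pair, to 0.067, and without quiescent sample 2 the Psmb9 pair was at 0.077.

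**Figure D4:**
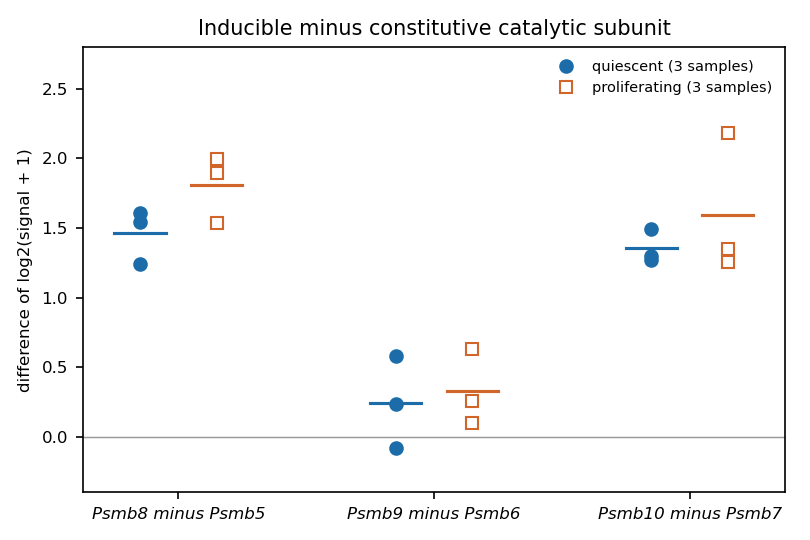
Difference of log2(signal + 1) between the lead peak of each inducible subunit gene and that of its constitutive counterpart (y), for 3 quiescent (filled circles) and 3 proliferating (open squares) samples; lines are group means. The groups overlap in all 3 pairs, and the highest value of each pair is from proliferating sample 1, at 2.00, 0.63 and 2.18; peaks differ in width, so the height of a pair above 0 is not a ratio of levels.

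Among the lead peaks of the base ATPases, which unfold the substrate, the extremes were Psmc6 and Psmc2. Psmc6 had 959, 633 and 644 in quiescent samples and 635, 584 and 695 in proliferating samples, with quiescent sample 1 apart from the other quiescent samples. Psmc2 had 89.9, 132 and 125 in quiescent samples and 93.6, 154 and 141 in proliferating samples, and in each group sample 1 was the lowest. The log2 fold changes were 0.20 and -0.15, and the groups overlapped at both genes. Among the lead peaks of the rest of the regulatory particle they were Psmd13 and Psmd6, both lid subunits. Psmd13, whose peak is also within 1 kb of an end of Sirt3, had 329, 291 and 354 in quiescent samples and 186, 290 and 319 in proliferating samples. Psmd6 had 74.0, 81.2 and 40.3 in quiescent samples and 97.6, 78.1 and 74.0 in proliferating samples. One sample stood low at each gene, proliferating sample 1 at Psmd13 and quiescent sample 3 at Psmd6. Their log2 fold changes were 0.32 and -0.40 and did not pass the test. Weaker peaks reached lower values, -0.30 at the Psmc3 peak over the gene end and -0.49 at the second peak of Psmd14, a deubiquitinase of the lid, and neither passed the test.

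Among the activators, Psme1 and Psme2 encode the interferon-inducible ring and are neighbours on chromosome 14. Psme1 had 308, 215 and 236 in quiescent samples, against 307, 258 and 333 in proliferating samples. Psme2 had 954, 646 and 776 in quiescent samples, against 1148, 744 and 915 in proliferating samples. At both genes the groups overlapped and sample 2 was the lowest of each group. The log2 fold changes were -0.25 and -0.24. The weak 3′ peak of Psme2 (chr14:55586314-55586643), which is also within 1 kb of Emc9, had 35.8, 26.5 and 38.4 in quiescent samples, against 55.2, 55.1 and 50.1 in proliferating samples. All quiescent values were below all proliferating ones there, with a log2 fold change of -0.67 (95% interval -1.30 to -0.04, adjusted p = 0.181, limma). On reads scaled to the total it was -1.05 (adjusted p = 0.0362, limma-voom).

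Psme3, which encodes a nuclear activator that works without ubiquitin, had 152, 206 and 132 in quiescent samples and 177, 172 and 169 in proliferating samples. Psme4, whose product binds acetylated histones and serves in spermatogenesis, had 115, 105 and 104 in quiescent samples and 74.6, 98.1 and 94.6 in proliferating samples. Quiescent values at Psme3 lay on both sides of the proliferating ones, while at Psme4 all quiescent values were above. The weaker Psme4 peak, which covers the gene start, averaged 89.5 in quiescent and 96.1 in proliferating samples, with overlapping groups and a log2 fold change of -0.13. The log2 fold changes of the lead peaks were -0.10 and 0.28 (95% interval of the second -0.20 to 0.77), and neither passed the test. Psma8, the testis-specific alpha subunit on chromosome 18, had 503, 423 and 377 in quiescent samples and 397, 404 and 331 in proliferating samples. The groups overlapped, and the log2 fold change was 0.20.

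The proliferating samples differed among themselves by more than the groups did. Over the 56 constitutive peaks, the median deviation from the mean of the 6 samples was -0.02, 0.04 and -0.05 in quiescent samples 1, 2 and 3. It was -0.13, 0.07 and 0.15 in proliferating samples 1, 2 and 3, on the log2 scale. Other gene-end peaks showed a like order among proliferating samples, at -0.06, 0.06 and 0.14, and -0.06, -0.02 and -0.03 in quiescent samples. Proliferating sample 1 was the lowest of the 6 samples at 26 of the 56 peaks (46.4%, against 30.4% of other gene-end peaks), and proliferating sample 3 was the highest at 21 (37.5%, against 28.0%). These samples have the fewest and the most estimated reads, and the part of depth in this order was not tested. Without proliferating sample 1 the constitutive median was -0.16 (other gene-end peaks -0.14), and without proliferating sample 3 it was -0.01 (-0.03), so the median followed that of other gene-end peaks in both cases.

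**Figure D5:**
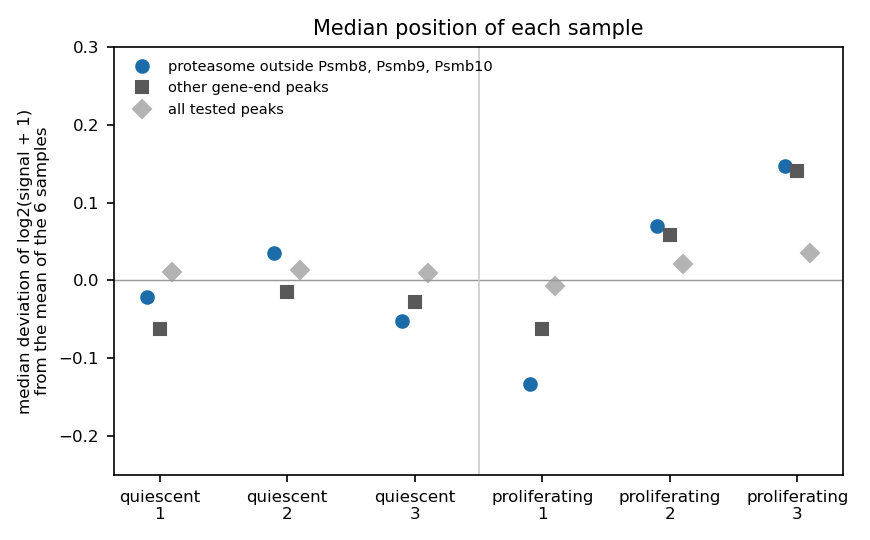
Median deviation of log2(signal + 1) from the mean of the 6 samples (y) in each sample (x), for 56 constitutive proteasome peaks, 15762 other gene-end peaks and all 87411 tested peaks. The proteasome peaks are lowest in proliferating sample 1 (-0.13) and highest in proliferating sample 3 (0.15), and the 3 quiescent samples lie between them.

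Genes that work with the proteasome were examined in the same way. Limma called 0 peaks at the adjusted threshold in each of 4 related lists of 6 to 23 peaks, with and without the replicate block, where the shares over other gene-end peaks were 2.81% without it and 8.79% with it. The numbers past an unadjusted p below 0.05 were 0 of 9 for dedicated assembly chaperones (median fold change -0.14), 1 of 15 for associated proteins and shuttles (-0.09), 0 of 6 for transcriptional control (0.06) and 1 of 23 for antigen processing (0.05), against 13.9% of other gene-end peaks. The last list shares 3 peaks with the proteasome set. The associated protein was Adrm1, the ubiquitin receptor of the regulatory particle, with 92.4, 99.2 and 123 in quiescent samples and 160, 128 and 150 in proliferating samples. All quiescent values were below the proliferating ones (log2 fold change -0.48). The antigen-processing peak was a weak one beyond the 3′ end of B2m, the light chain of MHC class I (log2 fold change 0.94). Limma-voom called 0, 0, 0 and 1 peaks in these lists with median-of-ratios scaling and 0, 1, 0 and 1 with scaling to the total, against 6.74% and 8.95% of other gene-end peaks. With 6 to 23 peaks a list, counts of 0 or 1 lie near those shares. Of 8 peaks of interferon response genes limma called 0, with 1 past an unadjusted p below 0.05 (Ifit1, log2 fold change 0.56) and a median of 0.06. With the replicate block Ifit1 was called higher (adjusted p = 0.0442, limma), and limma-voom called 1 peak with median-of-ratios scaling and 0 with scaling to the total.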

How the data were processed

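The authors deposited 1 signal value per peak and sample, a scaled quantity that is not whole reads, for a single peak list. Bowtie2, SAMtools, MACS2 and mm10 are named per the submitters' processing notes; versions and the way of counting and scaling: not given in the sources used here. Libraries were made with an ATAC-seq kit and sequenced in 2 runs per sample, per the labels' protocols. Coordinates are printed as deposited.

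Peaks within 1 kb of a gene end were found with RefSeq genes of GRCm38.p6, and 5′ and 3′ ends are those of the gene's full extent. On log2(signal + 1), limma 3.58.1 in R 4.3.3 was run with its trend option over all 87411 peaks above the weakest 10%. Benjamini-Hochberg adjustment ran over all of them at a threshold of 0.05, and fold changes understate weak peaks. It stands in for the count test of the design, since the values are not counts. The value of 1 read was followed along peak strength in 7 rounds to estimate reads. Of estimates up to 100 reads, 90.8% to 100.0% per sample were within 0.1 of a whole number. The value of 1 read was itself chosen for nearness to whole numbers, so this share is no independent check. Proliferating samples 2 and 3 had medians of 112 and 179 estimated reads per peak, so many of their values lay outside it. The estimates served only the limma-voom alternatives and the depths given per sample. Fits and read estimates were run on simulated data. The simulation for the fits gave every peak the same spread beyond counting noise, and that for the reads used the estimated scaling curves. Neither can therefore show how accurate the results are on the real values. Same-numbered samples of both groups correlated at 0.43, 0.285 and 0.21 in their deviations from group means, all above 0.1, so the numbers were taken to pair them. Among differently numbered samples, quiescent 2 with proliferating 3 (0.22) and quiescent 3 with proliferating 2 (0.146) were also above 0.1. The labels give only the number. 

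Members, lists and tests were chosen with earlier results of these data known. Peaks given by sample were those of Psmb8, Psmb9 and Psmb10, any peak called, the lead peaks of Psmb5 to Psmb7 and Psme1 to Psme4, Psma8, and the lead peaks with the highest and lowest fold change in each class. The Psma3 and Psma6 promoter peaks, the Psme2 3′ peak and the Adrm1 peak were added after their values were seen. A marker gene and a related gene list are not reported here. Python 3.11.15, numpy 2.4.6, pandas 2.3.3 and matplotlib 3.10.9 were used.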

Additional observations from a re-analysis of the deposited data

How the results depend on the processing

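No proteasome peak was called higher or lower with pseudocount 8, without a filter, with 25% of the weakest peaks left out, with peaks overlapping a gene end or within 3 kb of one, with lead peaks alone, or with peaks touching a listed promoter (chosen after seeing the data). The replicate block gave 2 higher and 1 lower, reads with median-of-ratios scaling 2 higher and 0 lower, and reads scaled to the total 0 higher and 1 lower. Leaving out 1 sample at a time gave 0 higher throughout and 0 to 1 lower. Over all tested peaks, calls numbered 5876 with all samples, and 6505, 161 and 0 without quiescent sample 1, 2 or 3, and 8241, 790 and 1160 without proliferating sample 1, 2 or 3. The share of other gene-end peaks called, 2.81%, moved with them between 0.0% and 4.21%.

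The constitutive median ranged from -0.16 to -0.01 when a sample was left out and was -0.28 with scaling to the total, where the median of all tested peaks was -0.25; the block left it at -0.08. The median of Psmb8, Psmb9 and Psmb10 peaks ranged from -0.21 to -0.015 and was 0.058 with median-of-ratios scaling. Of the pair differences, Psmb8 minus Psmb5 ranged from -0.48 to -0.23 when a sample was left out, Psmb9 minus Psmb6 from -0.25 to 0.077 (0.077 without quiescent sample 2, 0.067 without proliferating sample 1) and Psmb10 minus Psmb7 from -0.41 to 0.051 (the last without proliferating sample 1). On estimated reads the Psmb8 pair was at -0.18 and the Psmb10 pair at -0.085 (scaled to the total). The cause was not tested. Estimated reads per peak had medians from 27 (proliferating sample 1) to 179 (proliferating sample 3), and the part of depth in these values was not tested.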
